A study of Mus musculus with 40 samples.

Results

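Oxidative phosphorylation (OXPHOS) genes were followed in the kidneys of mice given 2,3,7,8-tetrachlorodibenzo-p-dioxin (TCDD), a long-lived pollutant that binds and activates the AhR (aryl hydrocarbon receptor). Members were all protein-coding mouse genes whose symbols begin as those of the subunits of complexes I to V do (Nduf followed by a, b, c, s or v and a digit, Sdha to Sdhd, Uqcr, Cox4 to Cox8, and Atp5), without Cox8b, together with the 13 protein-coding genes of mitochondrial DNA. The rule found 97 of the 55359 gene identifiers counted. Of these, 84 are nuclear (37 of complex I, 4 of complex II, 8 of complex III, 17 of complex IV and 18 of complex V) and 13 are mitochondrial (7, 0, 1, 3 and 2). Nuclear and mitochondrial genes are described apart. The choice was made by name, so it includes a few relatives that are not fixed parts of a complex, such as Cox7a2l. It files Ndufa4 under complex I, although its protein has been described as part of complex IV.

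Right kidneys of 40 male C57BL/6 (C57BL/6NCrl) mice were sequenced in bulk, with 5 mice and 5 libraries in each of 8 groups. Mice of 7 groups received TCDD in sesame oil at 0.03, 0.1, 0.3, 1, 3, 10 or 30 µg/kg, and those of the vehicle group sesame oil alone. All were gavaged every 4 days for 28 days, from 30 to 58 days of age, and the labels name no genetic change in any group. The comparison of each dose with vehicle asks at which dose transcripts change. Gene counts summed to 15278423 to 25575317 per library. Cyp1a1, the classical AhR target, measured 1.15, 4.00, 1.60, 3.42 and 1.70 CPM (counts scaled to library size with TMM factors) in vehicle and 2881, 2086, 2072, 2994 and 2642 CPM at 30 µg/kg. Whole kidney mixes many cell types, so fewer cells of a type and less RNA per cell cannot be told apart.

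The respiratory chain passes electrons from NADH (complex I) and succinate (complex II) through coenzyme Q, complex III and cytochrome c to oxygen at complex IV. Complexes I, III and IV pump protons, and complex V, the ATP synthase, uses the gradient to make ATP. The kidney tubule, above all the proximal tubule, relies on this supply for solute transport. All complexes except complex II join subunits from both genomes.

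Nuclear OXPHOS transcripts were slightly lower at the upper doses, and few passed the test at a single dose. At 30 µg/kg, 7 of the 81 tested nuclear genes fell and 0 rose, which is 8.64% falling. Over all 17345 tested genes, 7.55% fell and 8.39% rose in this comparison, so the share of nuclear members called is near the background. Called here means a Benjamini-Hochberg adjusted p under 0.05 over all genes, from edgeR's quasi-likelihood test. Along the ordered doses, from rank 0 for vehicle to rank 7 for 30 µg/kg, 29 of the 81 nuclear genes fell and 1, Ndufa4l2, rose. That is 35.8% falling, against 8.84% of all genes (19.8% called in either direction, 11% rising), and against 19.2% of the 5633 other protein-coding genes with a mean log2 CPM over 5. None of the 13 mitochondrial genes was called at any dose against vehicle or along the doses.

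By dose, the median log2 fold change of the 81 nuclear genes was 0.01, 0.06, 0.07, -0.02, -0.06, -0.10 and -0.15 from the lowest dose (0.03 µg/kg) to the highest (30 µg/kg). The number of genes below 0 was 32, 12, 16, 50, 66, 73 and 75 in the same order. At 30 µg/kg 48.4% of all tested genes and 60.7% of the abundant non-members were below 0. The counts at 0.1 and 0.3 µg/kg leaned the other way with 0 genes called, so a lopsided count alone does not show a change. At 30 µg/kg the median over all tested genes was 0.01. These contrasts share the vehicle libraries, so they are not independent of each other. From 0.03 to 10 µg/kg edgeR called 0 nuclear genes, with 0, 0, 1, 0, 3 and 15 at an unadjusted p under 0.05, and 31 at 30 µg/kg. Over all genes the called share was 0% in the 0.03 and 0.1 µg/kg groups, 0.00577% in the 0.3 µg/kg group, 0.513% in the 1 µg/kg group and 1.1% in the 3 µg/kg group (1.04% higher). In the 10 µg/kg group it was 4.83% (0.997% lower, 3.83% higher), with 2.09% lower among the abundant non-members. DESeq2 called 1 nuclear gene at 3 µg/kg and 1 at 10 µg/kg, in both cases Sdha, the flavoprotein subunit of complex II. In edgeR, Sdha had a log2 fold change of -0.21 ± 0.062 (SE, adjusted p = 0.0924) at 3 µg/kg, -0.18 ± 0.062 (adjusted p = 0.0913) at 10 µg/kg and -0.04 at 30 µg/kg.

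**Figure D1:**
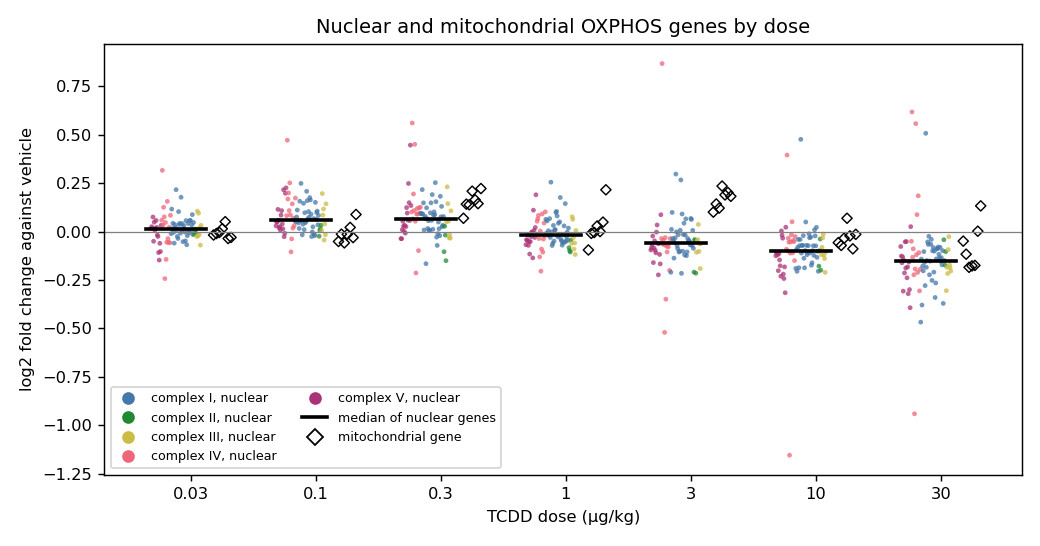
Log2 fold change against vehicle (vertical axis) at each TCDD dose (horizontal axis, µg/kg) for the 81 tested nuclear genes, coloured by complex, with their median as a black bar, and for the 7 mitochondrial genes with over 1000 counts in every library (open diamonds). The nuclear median moves from 0.07 at 0.3 µg/kg to -0.15 at 30 µg/kg, while most single genes stay close to 0.

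Contrasting 30 with 10 µg/kg, which uses no vehicle library, gave 0 calls among the 94 tested members in edgeR, against 2.7% of all genes (1.52% lower, 1.19% higher), and a median nuclear log2 fold change of -0.05. At an unadjusted p under 0.05 there were 6 nuclear genes and 1 mitochondrial gene. Without the library of 30 µg/kg replicate 1 the calls were 5, namely Ndufc1, Ndufa4, Atp5j and mt-Nd2 lower and Cox7a2l higher. The share of all genes called in that fit is not given.

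Other gene groups give the scale of the nuclear fold changes. Among 77 tested mitochondrial ribosomal protein genes, whose products translate the mitochondrial messages, 4 fell and 0 rose at 30 µg/kg (median log2 fold change -0.11), and 25 fell and 0 rose along the doses (32.5%). Among 71 abundant cytosolic ribosomal protein genes, 0 fell and 7 rose at 30 µg/kg (median 0.11). The abundant non-member protein-coding genes had 16% falling at 30 µg/kg, with a median of -0.05. Nuclear OXPHOS genes with less than 1000 exonic bases had a median of -0.17 (20 genes), and those with 1000 or more had -0.15 (61 genes).

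Complex I, as filed by name, had 2 genes that fell at 30 µg/kg, Ndufv3 and Ndufa4, of 37 tested. Of the 37 fold changes, 36 were below 0 (median -0.14), as were 48.4% of those of all tested genes. Ndufv3, an accessory subunit of the NADH-oxidising module (chr17:31520115-31531331, plus strand, GRCm38), measured 147, 156, 175, 162 and 142 CPM in vehicle and 138, 133, 97.3, 110 and 125 CPM at 30 µg/kg. All 5 libraries at 30 µg/kg were under the lowest vehicle library. The log2 fold change was -0.37 ± 0.10 (SE, adjusted p = 0.00884, edgeR), a fall of 22.7% by the fit, the largest among the 7. Mean Ndufv3 levels for vehicle, 0.3, 1, 3, 10 and 30 µg/kg were 156 ± 13.0, 165 ± 32.3, 158 ± 18.1, 147 ± 9.63, 136 ± 16.0 and 121 ± 16.8 CPM (SD, n = 5 each).

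Ndufa4 (chr6:11900292-11907497, minus strand) measured 333, 332, 377, 369 and 345 CPM in vehicle and 339, 294, 268, 265 and 282 CPM at 30 µg/kg. Of the treated libraries, 4 were under all vehicle libraries, and replicate 1 overlapped them. Its log2 fold change was -0.28 ± 0.080 (adjusted p = 0.0109). Its paralogue Ndufa4l2, known as a hypoxia-inducible gene, was the one nuclear member that rose along the doses. It measured 3.57, 5.57, 3.84, 3.15 and 3.34 CPM in vehicle and 5.45, 6.89, 5.42, 4.32 and 5.69 CPM at 30 µg/kg. Vehicle replicate 2 overlapped the treated range. The rise was 4.53% per dose rank (adjusted p = 0.0321), on 43 to 162 counts per library, and the contrast at 30 µg/kg missed the threshold (log2 fold change 0.51, adjusted p = 0.0796).

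Along the doses 9 complex I genes fell, among them Ndufv1, Ndufv3, Ndufb10, Ndufa10 and Ndufa4. Ndufv1, the flavin-bearing subunit that oxidises NADH, had the lowest p of all members in this test, with a log2 slope of -0.034 ± 0.0075 per dose rank (SE, adjusted p = 0.000574), a fall of 2.36% per rank. Its levels were 300, 311, 325, 329 and 309 CPM in vehicle and 287, 263, 270, 287 and 290 CPM at 30 µg/kg. The 2 sets of libraries did not overlap, yet the contrast at 30 µg/kg itself missed the threshold (log2 fold change -0.17 ± 0.065, adjusted p = 0.0656). Mean Ndufv1 levels for 0.03, 0.1, 0.3, 1, 3 and 10 µg/kg were 334 ± 12.4, 339 ± 21.4, 320 ± 36.8, 314 ± 21.5, 299 ± 18.2 and 287 ± 18.6 CPM (SD, n = 5 each). The vehicle mean was 315 ± 11.7 CPM, so the means of the 3 lowest doses lay above it.

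Since 29 nuclear genes fell along the doses, their promoters were searched for short motifs of factors known for mitochondrial gene control and for the AhR, on both strands, in windows from 250 bases before to 50 bases after the RefSeq start. RefSeq windows (GRCm38.p6) were matched by Ensembl identifier or symbol for 66 of the 84 nuclear members (71 windows). Of the 29 falling genes, 22 were matched (24 windows). The motif TNGCGTG, the AhR core, was found in 11.3% of the member windows, against 5.07% of all 32851 windows. It was in 12.5% of the falling genes' windows (3 of 24) and in 11.1% of those of the other tested members (5 of 45). In the order members, falling genes, other tested members and all windows, the NRF1 motif GCGCATGC was in 14.1%, 8.33%, 17.8% and 2.71%. The GABPA motif CCGGAAG was in 22.5%, 25%, 22.2% and 8.86%, and the YY1 motif AAGATGGC in 12.7%, 0%, 20% and 2.75%. The ESRRA motif TCAAGGTCA was in 2 member windows (2.82%, against 0.423% of all windows), those of Sdhd and Atp5g3, which both fell along the doses. NRF1 motifs can overlap each other, as in Cox6a1. A match describes letters and is not a binding site. The following windows belong to 4 of the falling genes, those of lowest trend p in complexes I, II, IV and V. They carry the AhR, ESRRA, NRF1 or GABPA letters. The complex III gene chosen in the same way, Uqcrfs1, held none of the motifs searched and is not printed. The 4 windows run 5' to 3' on the strand of the gene, with the motif letters in capitals. They are Ndufv1 (chr19:4012706-4013005, minus strand, AhR), Sdhd (chr9:50603800-50604099, minus, GABPA then ESRRA), Cox6a1 (chr5:115348909-115349208, minus, 2 overlapping NRF1 matches then GABPA) and Atp5g3 (chr2:73911277-73911576, minus, ESRRA).
Ndufv1: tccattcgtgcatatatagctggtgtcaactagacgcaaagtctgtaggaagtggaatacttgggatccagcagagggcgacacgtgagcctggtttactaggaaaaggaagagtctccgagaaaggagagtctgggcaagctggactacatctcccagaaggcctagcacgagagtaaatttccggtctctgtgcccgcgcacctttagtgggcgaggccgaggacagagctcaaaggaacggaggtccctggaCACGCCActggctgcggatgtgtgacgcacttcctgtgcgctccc
Sdhd: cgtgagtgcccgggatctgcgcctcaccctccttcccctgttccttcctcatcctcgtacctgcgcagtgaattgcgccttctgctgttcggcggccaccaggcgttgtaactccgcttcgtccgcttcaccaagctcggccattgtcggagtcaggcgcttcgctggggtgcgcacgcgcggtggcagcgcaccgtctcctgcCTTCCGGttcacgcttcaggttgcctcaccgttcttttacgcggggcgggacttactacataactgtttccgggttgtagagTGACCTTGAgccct
Cox6a1: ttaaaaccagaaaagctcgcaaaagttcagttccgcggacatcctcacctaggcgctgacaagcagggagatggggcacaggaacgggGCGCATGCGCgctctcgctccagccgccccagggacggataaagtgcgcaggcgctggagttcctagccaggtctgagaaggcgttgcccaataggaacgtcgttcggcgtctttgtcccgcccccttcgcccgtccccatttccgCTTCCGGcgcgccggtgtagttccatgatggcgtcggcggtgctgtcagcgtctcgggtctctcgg
Atp5g3: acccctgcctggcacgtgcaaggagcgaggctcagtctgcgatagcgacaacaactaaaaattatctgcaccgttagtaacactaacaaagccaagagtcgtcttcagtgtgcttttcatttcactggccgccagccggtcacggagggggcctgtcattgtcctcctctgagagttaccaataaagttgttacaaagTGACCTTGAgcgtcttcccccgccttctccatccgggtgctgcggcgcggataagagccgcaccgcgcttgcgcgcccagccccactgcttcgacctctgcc

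In complex II, which is wholly nuclear, Sdhc was the gene that fell at 30 µg/kg, of 4 tested, and Sdhd, Sdhb and Sdhc fell along the doses. Sdhc, a membrane anchor subunit (chr1:171127165-171150603, minus strand), measured 374, 358, 381, 399 and 365 CPM in vehicle and 351, 310, 331, 340 and 332 CPM at 30 µg/kg. The groups did not overlap. Its log2 fold change was -0.17 ± 0.063 and its adjusted p 0.0499, at the edge of the threshold. Leaving out 1 of the 10 libraries kept the call in 2 of 10 fits, those without vehicle replicate 2 or 30 µg/kg replicate 1. Sdhd, the other anchor, had 260, 269, 265, 250 and 243 CPM in vehicle and 226, 239, 266, 216 and 250 CPM at 30 µg/kg. These groups overlapped, and its fall of 1.88% per dose rank (adjusted p = 0.0121) rested on the series of doses.

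Complex III had 2 falling genes of 8 at 30 µg/kg, and all 8 fold changes were below 0 (median -0.19). Over all tested genes 48.4% were below 0. Uqcrfs1, the Rieske iron-sulfur protein (chr13:30540308-30545362, minus strand), measured 429, 428, 460, 433 and 408 CPM in vehicle and 400, 390, 408, 335 and 383 CPM at 30 µg/kg. Of the treated libraries, 4 lay under all vehicle libraries. The log2 fold change was -0.17 ± 0.059 (adjusted p = 0.036), a call that held in 4 of 10 fits leaving out 1 library. The slope was -0.028 ± 0.0063 per dose rank (adjusted p = 0.000866). Uqcr10, a small subunit (chr11:4701973-4704342, minus strand), measured 219, 221, 236, 219 and 201 CPM in vehicle and 214, 186, 150, 151 and 186 CPM at 30 µg/kg. Replicate 1 at 30 µg/kg lay inside the vehicle range and the other 4 below it. Its log2 fold change was -0.31 ± 0.099 (adjusted p = 0.0278). Uqcrh, the hinge protein, fell along the doses by 2.14% per rank (adjusted p = 0.00955).

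Complex IV, as filed by name and so without Ndufa4, had 0 of 15 genes called at 30 µg/kg, the lowest adjusted p being 0.0562 for Cox7a2. Along the doses 5 fell: Cox6a1, Cox6b1, Cox7c, Cox7a2 and Cox6a2. Cox6a1 had the highest level per kilobase of exon of all nuclear members in vehicle, 824 ± 59.97 CPM per kb (SD, n = 5), ahead of Cox8a with 710 ± 54.3. It measured 529, 569, 602, 638 and 556 CPM in vehicle and 557, 468, 427, 477 and 550 CPM at 30 µg/kg. Those ranges overlapped. It fell by 2.37% per dose rank (adjusted p = 0.013).

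Several complex IV subunits exist as a widespread isoform and one of muscle, lung or testis. In vehicle, Cox4i1 stood at 341 ± 29.3 CPM per kb and Cox4i2 at 0.696 ± 0.557, Cox6b1 at 428 ± 25.7 and Cox6b2 at 4.65 ± 1.63, and Cox7a2 at 247 ± 18.9 and Cox7a1 at 20.6 ± 2.94 (SD, n = 5 each). Cox8c had 0 counts in every library and was not tested, like Cox7b2 and 1 of the 2 identifiers named Atp5o. Cox6a2, the muscle isoform, had 2.30, 1.67, 0.949, 1.18 and 0.453 CPM in vehicle and 0.908, 0.396, 1.02, 0.280 and 0.801 CPM at 30 µg/kg, on 5 to 68 counts per library. The groups overlapped. It fell by 10.9% per dose rank (adjusted p = 0.031), the steepest slope among the falling genes. Cox6b2, the testis isoform, measured 7.43, 6.63, 3.71, 3.28 and 4.70 CPM in vehicle and 7.44, 6.89, 10.3, 5.50 and 7.86 CPM at 30 µg/kg, which did not pass the test (log2 fold change 0.56, adjusted p = 0.0819).

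Complex V had 2 falling genes of 17 at 30 µg/kg, Atp5e and Atp5j, and 9 along the doses: Atp5g3, Atp5f1, Atp5c1, Atp5b, Atp5e, Atp5g1, Atp5a1, Atp5d and Atp5mpl. Atp5e and Atp5j were singled out after their values were seen, since they lie outside the rule for named genes. Atp5e, the epsilon subunit of the catalytic head (chr2:174461072-174464105, minus strand), measured 210, 208, 236, 205 and 188 CPM in vehicle and 190, 174, 131, 160.6 and 192 CPM at 30 µg/kg. Replicates 1 and 5 at 30 µg/kg overlapped vehicle. Its log2 fold change was -0.31 ± 0.10 (adjusted p = 0.0371), a call that held in 4 of 10 fits leaving out 1 library. Atp5j, coupling factor 6 (chr16:84827866-84835625, minus strand), measured 203, 219, 238, 206 and 210 CPM in vehicle and 216, 179, 169, 160.6 and 186 CPM at 30 µg/kg, with replicate 1 inside the vehicle range. Its log2 fold change was -0.24 ± 0.075 (adjusted p = 0.0226). For the 10 µg/kg group it was -0.02. It was the one gene lower at 30 µg/kg that did not pass the test along the doses (adjusted p = 0.116).

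Atp5b, the catalytic beta subunit, was the most counted nuclear member, with means of 2961 ± 86.4, 3065 ± 146, 2876 ± 128, 2793 ± 183, 2747 ± 147 and 2713 ± 91.7 CPM for vehicle, 0.1, 1, 3, 10 and 30 µg/kg (SD, n = 5 each). All 5 libraries at 30 µg/kg, from 2636 to 2855 CPM, lay under the lowest vehicle library at 2861 CPM. It fell by 1.61% per dose rank (adjusted p = 0.00368). Atp5g3, which encodes the c subunit of the proton-driven ring, measured 594, 610, 677, 610 and 559 CPM in vehicle and 553, 490, 524, 520 and 590 CPM at 30 µg/kg. Replicate 5 at 30 µg/kg lay inside the vehicle range. Its slope was -0.041 ± 0.0093 per dose rank (adjusted p = 0.00111).

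**Figure D2:**
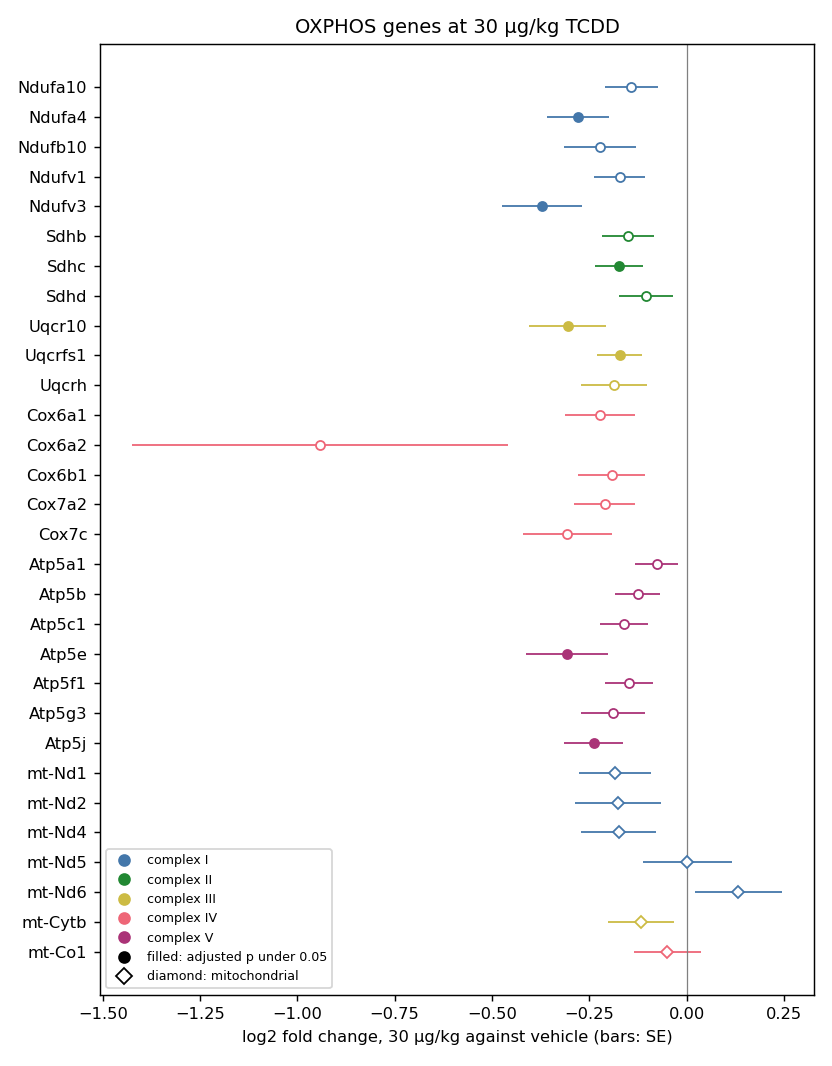
Log2 fold change at 30 µg/kg against vehicle with its SE (horizontal axis) for the named nuclear genes called at 30 µg/kg or falling along the doses and for the 7 well-counted mitochondrial genes (diamonds), coloured by complex. Filled symbols passed the test, from -0.17 for Sdhc to -0.37 for Ndufv3.

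**Figure D3:**
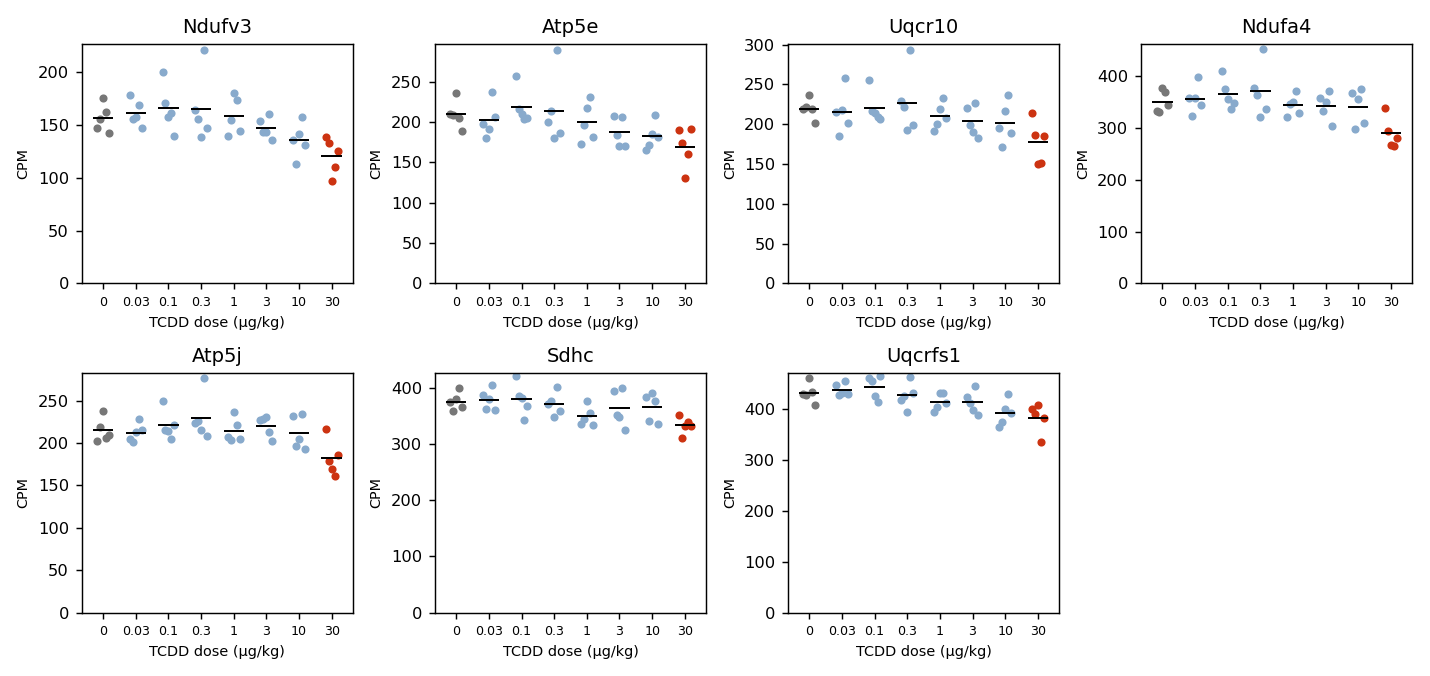
CPM per library (vertical axis, from 0) by TCDD dose (horizontal axis, µg/kg) for the 7 nuclear genes that fell at 30 µg/kg, with the mean of each group as a bar. Ndufv3 and Sdhc show no overlap between vehicle (grey) and 30 µg/kg (red), and the other 5 overlap in 1 or 2 libraries.

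Without the 30 µg/kg group, 13 of 81 nuclear genes (16.0%) fell along the remaining doses, against 2.77% of all 17060 genes tested in that fit. The share of abundant non-members, which with all doses was 19.2% beside 8.84% of all genes, is not given for that fit. Of these 13, 9 are among the 29 that fell with all doses, and 4 are not. The 7 calls at 30 µg/kg ranged from 2 to 20 when 1 of the 10 libraries was left out. The shares of all genes called in these fits are not given, so the counts have no background beside them. Ndufv3 and Ndufa4 were called in all 10 of these fits. Uqcr10 and Atp5j were called in 7 each, and lost the call without vehicle replicate 3 or without replicate 3 or 4 at 30 µg/kg. Uqcrfs1 and Atp5e were called in 4 each, with adjusted p up to 0.168 and 0.123. Both lost the call without vehicle replicate 1, 2, 3 or 4 or without replicate 4 at 30 µg/kg, Uqcrfs1 also without replicate 5 and Atp5e also without replicate 3 at 30 µg/kg.

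Mitochondrial genes held 7.97, 7.51, 8.97, 9.41 and 8.96% of gene counts in vehicle and 9.13, 8.40, 8.29, 8.43 and 7.12% at 30 µg/kg, shares that overlapped. The widest group was 3 µg/kg, with 9.98, 10.1, 11.1, 8.98 and 7.69%. Nuclear members held 2.03, 2.12, 2.14, 2.07 and 2.01% in vehicle and 2.03, 1.91, 1.81, 1.89 and 2.14% at 30 µg/kg. Here 3 treated libraries were under the vehicle range. The highest nuclear share of the series, 2.47%, was in replicate 4 at 0.3 µg/kg.

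**Figure D4:**
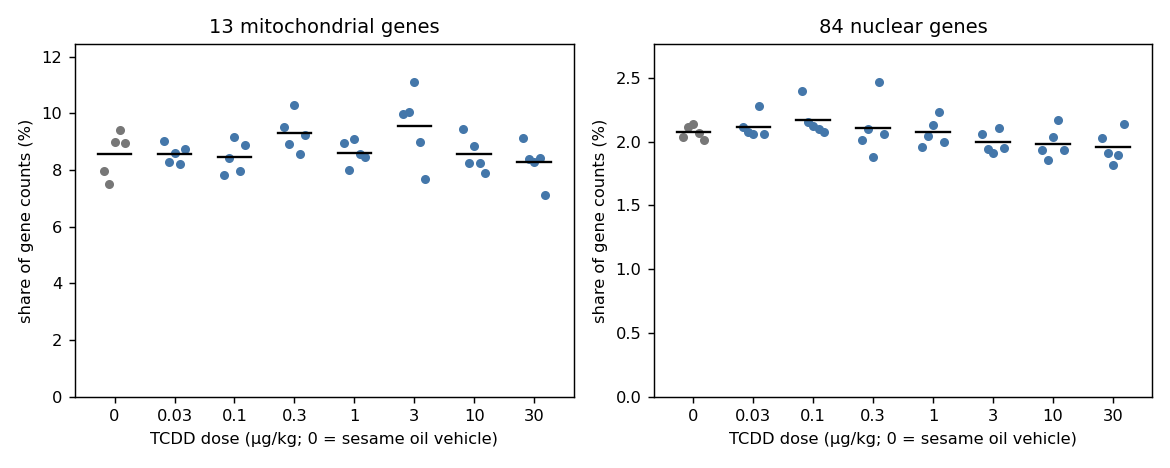
Share of gene counts (vertical axis, %) in the 13 mitochondrial genes and the 84 nuclear genes, by TCDD dose (horizontal axis, µg/kg), with a point per library and a bar for the mean. The mitochondrial means lie between 8.27 and 9.56%, and the nuclear means go from 2.08% in vehicle to 1.96% at 30 µg/kg.

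Of the 13 mitochondrial genes, 7 carried nearly all counts. mt-Co1, the catalytic subunit of complex IV, held 35.7% of the mitochondrial counts, mt-Cytb, the cytochrome b of complex III, 20.3%, and the complex I genes mt-Nd1, mt-Nd4, mt-Nd2, mt-Nd5 and mt-Nd6 13.1, 11.7, 9.39, 8.15 and 1.62%. mt-Co1 measured 30386, 27462, 31122, 36467 and 31858 CPM in vehicle and 31840, 30610, 34139, 30792 and 24632 CPM at 30 µg/kg. The groups overlapped in 4 libraries, and replicate 5 at 30 µg/kg lay below all vehicle libraries (log2 fold change -0.05 ± 0.085, adjusted p = 0.772). mt-Nd1 had 10344, 9802, 12136, 13331 and 11659 CPM in vehicle and 11734, 10756, 10206, 10098 and 7597 CPM at 30 µg/kg, the mitochondrial gene nearest to a call there (log2 fold change -0.18 ± 0.093, adjusted p = 0.187). mt-Nd6 lies on the other strand and overlaps mt-Nd5, and the first stranded column held 48.4 to 52.4% of the stranded counts of these 7 genes, so strands were not told apart.

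No mitochondrial gene was called by edgeR or DESeq2, and at an unadjusted p under 0.05 there were 0, 1, 1, 2, 3, 0 and 0 from 0.03 to 30 µg/kg and 0 along the doses. At 3 µg/kg all 13 fold changes were above 0, with a median of 0.20 and a lowest adjusted p of 0.35. Over all tested genes 49.7% were below 0 at that dose. At 30 µg/kg 6 of 13 were below 0, with a median of 0.00188. Over the 5 well-counted genes without an exact copy elsewhere (mt-Nd1, mt-Nd2, mt-Nd5, mt-Nd6 and mt-Cytb), 3 were below 0 and the median was -0.12. Their fold changes ran from -0.18 to 0.13, with 0 called, and their median log2 slope was -0.0033 per dose rank. The nuclear median was -0.15, with 75 of 81 below 0.

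The other 6, mt-Co2, mt-Co3, mt-Atp6, mt-Atp8, mt-Nd3 and mt-Nd4l, were together 0.0721% of the mitochondrial counts, although mitochondrial DNA is transcribed as long joint precursors. mt-Nd3 had 17 to 67 counts per library and mt-Co3 282 to 890, while mt-Co1 had 453219 to 792484. In 5 of the 6, nearly every stretch of 150 bases, the read length, also occurs letter for letter in a transcript of a nuclear pseudogene on chromosome 1 of GRCm38: 99.8% for mt-Co3 (Gm28437), 99.4% for mt-Co2 (Gm28661), 99.4% for mt-Atp6 (Gm10925), 98.0% for mt-Nd4l (Gm10222) and 97.0% for mt-Nd3 (Gm28438). mt-Nd4 had 59.2% such stretches (Gm28439) and mt-Co1 23.6% (Gm29216), and both were well counted. The 5 genes mt-Nd1, mt-Nd2, mt-Nd5, mt-Nd6 and mt-Cytb had 0% and were well counted, and mt-Atp8 had 0% with 1 to 22 counts. Only annotated transcripts were searched, so a copy in unannotated sequence would not have been found. mt-Atp8 shares 21.1% of its exonic bases with another gene. The deposited files set 6.98 to 9.70% of reads per library apart as mapping to several places. Whether these reads account for the low counts was not tested. Values of these 6 genes are therefore uncertain.

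The start of mt-Nd3 and of its copy Gm28438 (chr1:24612775-24613119, minus strand, GRCm38, GENCODE M21) show how alike the copies are. Over 345 bases they are 99.71% identical and differ by the 1 substitution T3C (mt-Nd3 base, position from 1 at the 5' end of mt-Nd3, Gm28438 base), in capitals. The copy had 354 to 1829 counts per library, with a median of 1136, against a median of 34 for mt-Nd3.
mt-Nd3: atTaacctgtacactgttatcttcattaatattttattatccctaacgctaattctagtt
Gm28438: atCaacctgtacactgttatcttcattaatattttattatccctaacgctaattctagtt

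**Figure D5:**
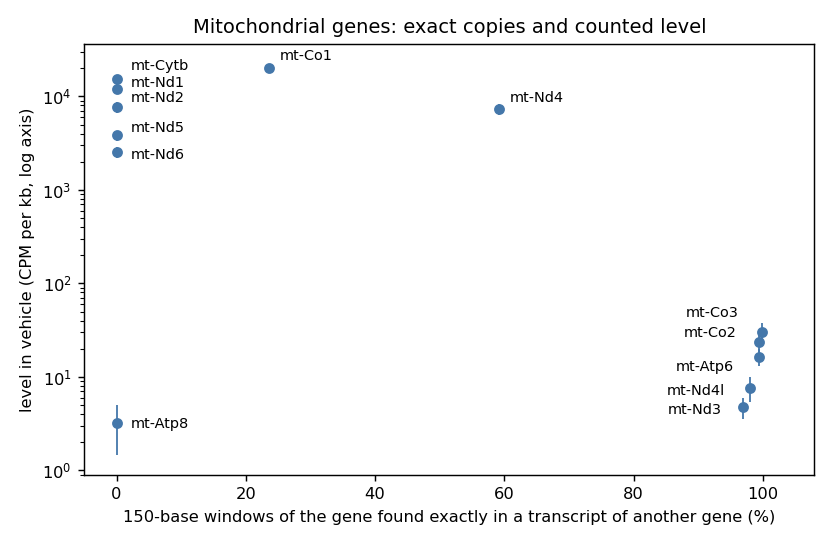
Level in vehicle (vertical axis, CPM per kb of exon, log axis, mean with SD of 5 libraries) of the 13 mitochondrial genes against the share of their 150-base windows found exactly in a transcript of another gene (horizontal axis, %). The 5 genes at 97.0% or more lie at 4.74 to 30.4 CPM per kb, and mt-Atp8, at 0%, lies at 3.23.

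Some nuclear members are also uncertain. Of 84, 54 share no exonic base with another annotated gene. Atp5o (ENSMUSG00000022956) shares 47.9% of its exonic bases, and the second identifier named Atp5o shares all of its exonic bases with other annotated genes. Ndufb6 shares 39.0% and Ndufa13 30.0%. None of these 3 tested genes was called.

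Genes that serve the chain are given by list. At 30 µg/kg 7.55% of all genes and 16% of the abundant non-members fell, and along the doses 8.84% and 19.2%. In a list this short, 1 or 2 calls do not set it apart from these shares. Of 15 tested complex I assembly factors, which build the enzyme without staying in it, 4 fell at 30 µg/kg and 0 rose, with a median log2 fold change of -0.20. Tmem126a had -0.52 ± 0.11 (adjusted p = 0.000431) and Ndufaf4 -0.48 ± 0.12 (adjusted p = 0.00363), and the others were Ndufaf6 and Acad9. Along the doses 6 of the 15 fell. Bcs1l, which inserts the Rieske protein into complex III, was the 1 of 6 complex III factors that fell at 30 µg/kg (-0.39, adjusted p = 0.00491). Cox14 (-0.27, adjusted p = 0.0136) and Cox15 (-0.20, adjusted p = 0.0485) were the 2 of 18 tested complex IV factors that fell. Among complex II and complex V factors 0 of 4 and 0 of 3 were called at 30 µg/kg.

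Cycs, the cytochrome c that carries electrons from complex III to IV, had a fold change further from 0 than any of the 7 nuclear subunits called. It measured 290, 280, 300, 277 and 231 CPM in vehicle and 258, 233, 151, 135 and 186 CPM at 30 µg/kg. Replicates 1 and 2 at 30 µg/kg overlapped the vehicle range, and the other 3 lay below it. The log2 fold change was -0.52 ± 0.098 (adjusted p = 0.000157). With Coq9 (-0.18, adjusted p = 0.0182) and Pdss1, both of coenzyme Q synthesis, 3 of 11 genes of the cytochrome c and coenzyme Q list fell at 30 µg/kg.

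Few upstream genes were called at 30 µg/kg, where 7.55% of all genes fell. Of 12 tested genes for mitochondrial DNA upkeep and transcription, 1, the elongation factor Tefm, fell at 30 µg/kg (-0.43, adjusted p = 0.031). Tfam, which packages mitochondrial DNA, was at 49.2 ± 2.06 CPM in vehicle and 48.4 ± 5.98 at 30 µg/kg, and the RNA polymerase Polrmt at 54.6 ± 4.69 and 52.0 ± 3.59 (SD, n = 5). Lrpprc, which stabilises mitochondrial messages, was at 145 ± 13.1 and 140 ± 15.2 CPM. None of these 3 passed the test.

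Of 11 regulators of mitochondrial biogenesis, 0 were called at 30 µg/kg and 1, the nuclear receptor Esrra, fell along the doses, by 2.52% per rank (adjusted p = 0.00713). It measured 155, 190, 160.9, 153 and 156 CPM in vehicle and 128, 136, 122, 131 and 177 CPM at 30 µg/kg, where replicate 5 lay inside the vehicle range. Its partner coactivator Ppargc1a (71.3 ± 6.93 and 85.1 ± 11.3 CPM) and Nrf1 (20.8 ± 1.22 and 22.7 ± 2.31 CPM) did not pass the test. In the citric acid cycle, which feeds the chain with NADH and succinate, Mdh2 fell at 30 µg/kg, of 14 tested (-0.20, adjusted p = 0.0181), and 4 fell along the doses. Over all genes 7.55% fell at 30 µg/kg and 8.84% along the doses.

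Markers of kidney and other cells also changed, and the dose at which calls began differed between the lists. At 30 µg/kg, 3 of 7 markers of the S1-S2 proximal tubule fell (among them Slc34a1, -0.55, and Slc22a6, -0.81) and 1, Cubn, rose, with a summed level of 12115 to 15991 CPM over the vehicle libraries and 8276 to 14653 at 30 µg/kg. Of the 5 markers of the S3 segment 3 fell, with sums of 4308 to 5170 and 1295 to 3776 CPM that did not overlap. In the 10 µg/kg group 0 of these 5 were called. Their log2 medians were 0.22 there and -1.06 in the top dose group. Endothelial markers rose in 4 of 5 (sums 279 to 304 and 381 to 446 CPM) and macrophage markers in 4 of 5 (59.8 to 116 and 116 to 154 CPM). Macrophage calls began in the 1 µg/kg group (2 of 5 higher) and endothelial calls in the 3 µg/kg group (2 of 5 higher). In the brown fat list 2 of 5 rose, Ucp1, the uncoupling protein, and Elovl3, with list sums of 23.8 to 47.8 and 91.8 to 184 CPM. Ucp1 measured 11.9, 15.9, 9.93, 9.53 and 4.19 CPM in vehicle and 54.3, 114, 67.5, 120 and 110 CPM at 30 µg/kg. In the principal cell list 3 of 4 markers fell, and in the thick ascending limb list 0 of 5. Of the distal convoluted tubule markers 1 of 3 fell, and of the intercalated cell markers 1 of 4. The part of these cell types in the OXPHOS values was not tested.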

How the data were processed

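Bulk RNA from 40 mouse kidneys was measured as read counts per gene. The authors deposited a table of whole-number counts for each library in STAR's layout, with 1 unstranded and 2 stranded columns, and the unstranded counts were used (column 3 held 50.4 to 51.0% of the stranded counts). The submitters' processing notes name FastQC 0.11.7, Trimmomatic 0.39, STAR 2.7.3a and DESeq2, and the builds GRCm39 and mm10 without their role. The annotation used for counting is not given in the sources used here. Reads that named no gene stayed out of library sizes: per library 1.41 to 2.66% unmapped, 6.98 to 9.70% mapping to several places, 5.28 to 7.27% in no feature and 5.40 to 5.98% ambiguous. A further deposited table of the whole series was not used.

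Identifiers were named with GENCODE M21 (GRCm38), which matched 52083 of 55359; the other 3276 held 0.663% of counts. Groups came from each library's labels, and replicate numbers were given in the order of the samples within each group. The 80 replicate pairs differed by more than sampling noise (chi-square per degree of freedom 7.34 to 87.9), so each library counted as 1 replicate. In R 4.3.3, genes passing edgeR's filterByExpr by group (17345) were scaled with TMM (0.966 to 1.09) and tested with the quasi-likelihood test of edgeR 4.0.16 on all 40 libraries without covariates, with Benjamini-Hochberg adjustment over all genes and a threshold of 0.05. Each dose was set against vehicle, 30 against 10 µg/kg, and a slope was fitted on the dose rank. The comparison of 30 µg/kg with vehicle was tested on simulated counts. That test did not cover the slope on the dose rank. CPM are TMM-scaled, and CPM per kb divides by the union of exons. Shares use unscaled gene counts. Reads carry no molecular identifiers, so depth covers counting error only.

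Alternatives were DESeq2 1.42.0, other scaling, no filter, the run of title numbers as a covariate, fewer libraries, and leaving out each library. Named were the 13 mitochondrial genes, per complex up to 4 called genes of lowest trend p in each direction, isoform pairs, the highest gene per kb of each complex, 7 regulators and partners, Cyp1a1, and up to 2 called genes per list; further called genes are named where a list of calls is given. A result that needs a withheld item is not reported here. The members and lists were chosen with earlier results of these data known.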

Additional observations from a re-analysis of the deposited data

Results flagged for a closer look

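In groups of 5 libraries, 7 values stood apart from the rest of their group by a gap test on the highest or lowest library; 116 groups were checked, and chance sets apart about 1 in 20, or 6. At 30 µg/kg, replicate 5 was lowest for mt-Cytb (13132 CPM, the next library 16641) and for mt-Atp6 (7.75 CPM, next 11.4), and highest for Esrra (177 CPM, next 136). In vehicle, replicate 2 was highest for Ndufa4l2 (5.57 CPM, next 3.84) and for Esrra (190 CPM, next 160.9). The nuclear members' share of gene counts was highest in replicate 4 at 0.03 µg/kg (2.28%, next 2.11%) and in replicate 1 at 0.1 µg/kg (2.40%, next 2.15%).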

How the results depend on the processing

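The 7 nuclear genes called at 30 µg/kg became 4 with no filter on low counts, 12 with DESeq2 and 1 with the 10 compared libraries alone, all of them lower. Leaving out 1 library gave 2 to 20: 2 without vehicle replicate 3 or 30 µg/kg replicate 4, 4 without vehicle replicate 4 or 30 µg/kg replicate 3, 11 without vehicle replicate 5 and 20 (19 lower, 1 higher) without 30 µg/kg replicate 1. DESeq2 called 1 nuclear gene at 10 µg/kg and 1 member at 0.03 to 3 µg/kg, where edgeR called 0. The 30 nuclear genes called along the doses became 13 (16.0%, against 2.77% of all genes falling in that fit) without the 30 µg/kg group, and 23 to 34 when 1 library was left out. Members called between 30 and 10 µg/kg ranged from 0 to 5, with 5 without 30 µg/kg replicate 1. Except for the trend without the 30 µg/kg group, the shares of all genes called in these fits are not given. The share of abundant non-members is given for none of them. These counts therefore do not show whether members changed more often than other genes. Mitochondrial genes had 0 calls under every alternative run for the doses against vehicle and the trend; between 30 and 10 µg/kg, mt-Nd2 was called without 30 µg/kg replicate 1 (log2 fold change -0.35, adjusted p = 0.0431). Of 300 values of named genes under alternatives other than leaving out a library, 287 stayed on the same side of the threshold, 10 lost the call and 3 gained it; 3 changed sign, called in neither. The cause of these changes was not tested. No paired analysis was possible because the labels give no replicate numbers. Those used here only follow the order of the samples within each group. With 15278423 to 25575317 gene counts per library, depth limits mt-Atp8, mt-Nd3, mt-Nd4l, Cox4i2 and Cox6a2, which have under 70 counts in each library.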

Other observations

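Cox8b, a muscle and brown fat isoform of complex IV left out of the members, measured 8.35, 7.54, 5.01, 7.23 and 2.09 CPM in vehicle and 10.2, 20.5, 11.7, 11.0 and 25.0 CPM at 30 µg/kg, all 5 above the highest vehicle library. It belongs to the brown fat list, in which 2 of 5 genes, Ucp1 and Elovl3, were called, so Cox8b did not pass the test. Single libraries at lower doses also lay above vehicle, up to 15.5 CPM at 1 µg/kg and 21.2 CPM at 10 µg/kg.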
